A study of Mus musculus with 10 samples.

Results

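The 39 Hox genes of the mouse were followed through 10 gastric tumours, 5 of an inflamed type and 5 of a desert type, with 1 RNA sequencing library per tumour. They were taken by symbol from a table of 56748 genes: every row whose name is Hox, a cluster letter from a to d and a paralog number. The members were chosen by symbol and not by any measured value, but the family was put forward with earlier results of these tumours known, among them its FPKM levels. The inflamed tumours were stomach tumours of mice with the genotype Tff1-CreERT2;Apcfl/fl;Trp53fl/fl, in which a tamoxifen-inducible Cre driven by Tff1, a gene of gastric surface cells, acts on floxed Apc and Trp53. The desert tumours were orthotopic allografts in the stomach, and their genotype is labelled Wild type. The identity of the grafted cells, whether the 5 grafts share a line, whether the genotype describes host or graft, and the strain, sex, age and time are not given in the sources used here. No genotype or agent is named as shared by both groups. Tumour type therefore cannot be told apart from the model, the genotype or the origin of the tumour cells.

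Hox genes encode homeodomain transcription factors that set positional identity along the body axis. In mammals they lie in 4 clusters, A to D, that arose by duplication of an ancestral cluster, so that genes with the same paralog number in different clusters are the closest relatives. Genes with low numbers are at the 3′ end of a cluster and act towards the head, and genes with high numbers are at the 5′ end and act towards the tail. The stomach derives from the foregut, whose mesenchyme expresses members with low and middle numbers. Adult cells commonly keep the Hox pattern of the region they came from, in part through Polycomb and Trithorax chromatin complexes.

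Promoters are shown for 4 cluster A genes because this cluster held genes on both sides of the comparison: Hoxa6, Hoxa9 and Hoxa10 were high in desert tumours, whereas Hoxa2 had its higher mean in inflamed tumours. The sequences are from RefSeq, build GRCm38.p6, each covering 250 bases before to 50 bases after a start site, on the minus strand and written 5′ to 3′. Capitals mark matches, on either strand, to a PBX-HOX site (TGATTNAT), a CCAAT box (those 5 letters) or a TATA box, searched as TATAAA. The windows are chr6:52164782-52165081 for Hoxa2, chr6:52208623-52208922 for Hoxa6, chr6:52227321-52227620 for Hoxa9 and chr6:52234890-52235189 for Hoxa10, which has another listed start in the table.
Hoxa2: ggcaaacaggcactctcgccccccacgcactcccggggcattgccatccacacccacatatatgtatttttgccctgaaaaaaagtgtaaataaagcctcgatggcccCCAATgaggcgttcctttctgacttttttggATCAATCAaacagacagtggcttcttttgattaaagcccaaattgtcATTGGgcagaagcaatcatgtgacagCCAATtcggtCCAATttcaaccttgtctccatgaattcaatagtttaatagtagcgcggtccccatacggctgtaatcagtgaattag
Hoxa6: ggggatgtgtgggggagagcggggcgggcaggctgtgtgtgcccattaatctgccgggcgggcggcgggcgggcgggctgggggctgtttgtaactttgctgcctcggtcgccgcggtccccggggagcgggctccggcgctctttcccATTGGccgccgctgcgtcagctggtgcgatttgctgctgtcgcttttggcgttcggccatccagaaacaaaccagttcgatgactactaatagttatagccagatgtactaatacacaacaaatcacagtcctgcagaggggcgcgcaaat
Hoxa9: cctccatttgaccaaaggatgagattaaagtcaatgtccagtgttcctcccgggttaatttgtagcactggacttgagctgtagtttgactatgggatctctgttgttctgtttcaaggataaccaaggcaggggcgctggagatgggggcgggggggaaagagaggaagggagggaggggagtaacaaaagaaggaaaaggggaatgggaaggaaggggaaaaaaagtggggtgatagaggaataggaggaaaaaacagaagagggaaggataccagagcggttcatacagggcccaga
Hoxa10: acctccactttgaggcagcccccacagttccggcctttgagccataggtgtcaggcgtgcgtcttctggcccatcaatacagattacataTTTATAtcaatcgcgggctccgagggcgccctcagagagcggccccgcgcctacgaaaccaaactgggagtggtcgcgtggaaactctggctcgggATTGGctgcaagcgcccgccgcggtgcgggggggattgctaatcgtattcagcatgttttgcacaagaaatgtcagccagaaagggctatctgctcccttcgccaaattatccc
The Hoxa2 window held 4 CCAAT boxes and 1 PBX-HOX site, the Hoxa6 window 1 CCAAT box, the Hoxa10 window 1 TATA box and 1 CCAAT box, and the Hoxa9 window none of these letters. The RefSeq table matched 22 of the 39 Hox genes, with 24 windows. A CCAAT box was found in 15 of the 24 (62.5%) and in 37.4% of all 32841 windows, a TATA box in 4 (16.7%) and 13.6%, and a PBX-HOX site in 2 (8.33%) and 3.22%. The Hox windows had a median of 14.5 CpG dinucleotides, against 7 over all windows. The 4 windows printed held 9 (Hoxa2), 26 (Hoxa6), 4 (Hoxa9) and 21 (Hoxa10). These are matches of letters only, and gene positions given below are the deposited table's own, which differ from these coordinates.

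Expression was deposited as FPKM, reads scaled by gene length and library size, so levels of different genes can be set side by side. FPKM times gene length was a whole multiple of a fixed step in each library, which gave the reads behind each value. The libraries held 14148147 to 16951640 reads in genes. As a check of the labelled tissue, the 10 gastric epithelium markers summed to 8112 to 42212 FPKM in inflamed tumours and to 25.3 to 56.2 FPKM in desert tumours. The neck cell gene Tff2 and the chief cell genes Pgc and Cblif reached at most 0.605, 1.31 and 0.127 FPKM in desert tumours. These were near 0 there, whereas Muc6 and the parietal cell gene Atp4a reached 35.4 and 17.1 FPKM. Atp4b, the other parietal cell gene of the list, reached at most 0.454 FPKM in desert tumours. Genes were tested with limma on log2(FPKM + 1), differences are inflamed minus desert, and adjusted p-values are Benjamini-Hochberg over all 16750 genes with a mean of at least 0.5 FPKM.

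Desert tumours expressed Hox genes of the middle and the 5′ part of the clusters, led by Hoxc10, Hoxc9 and Hoxc6, and inflamed tumours held low levels of genes with low and middle numbers. Summed over the 39 genes, Hox expression was 4.94, 2.36, 7.12, 5.99 and 3.31 FPKM in the inflamed tumours 1 to 5 and 52.1, 53.8, 58.01, 69.3 and 59.7 FPKM in desert tumours 1 to 5. The lowest desert sum was above the highest inflamed sum. In bulk tissue, fewer cells of a type and less RNA per cell cannot be told apart. Of the 39 genes, 13 passed the filter on mean level and 26 did not. Of the 13, 12 were called lower in inflamed tumours, 0 higher, and Hoxb4 was not called. Over all tested genes, 31.2% were called lower and 31% higher, or 62.2% in either direction. A gene high in only 1 group passes such a filter through that group, so the 12 of 13 is a description. Counted without any filter, over the 36 Hox genes with a read in some library, the 5 desert values all lay above the 5 inflamed values for 16 genes, the reverse held for Hoxb5 alone, and the groups overlapped for the other 19. Among all 34466 genes with a read, 13.7% had every desert value above every inflamed value and 15.2% the reverse. Hoxb1, Hoxd12 and Hoxd13 had no read in any library.

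**Figure D1:**
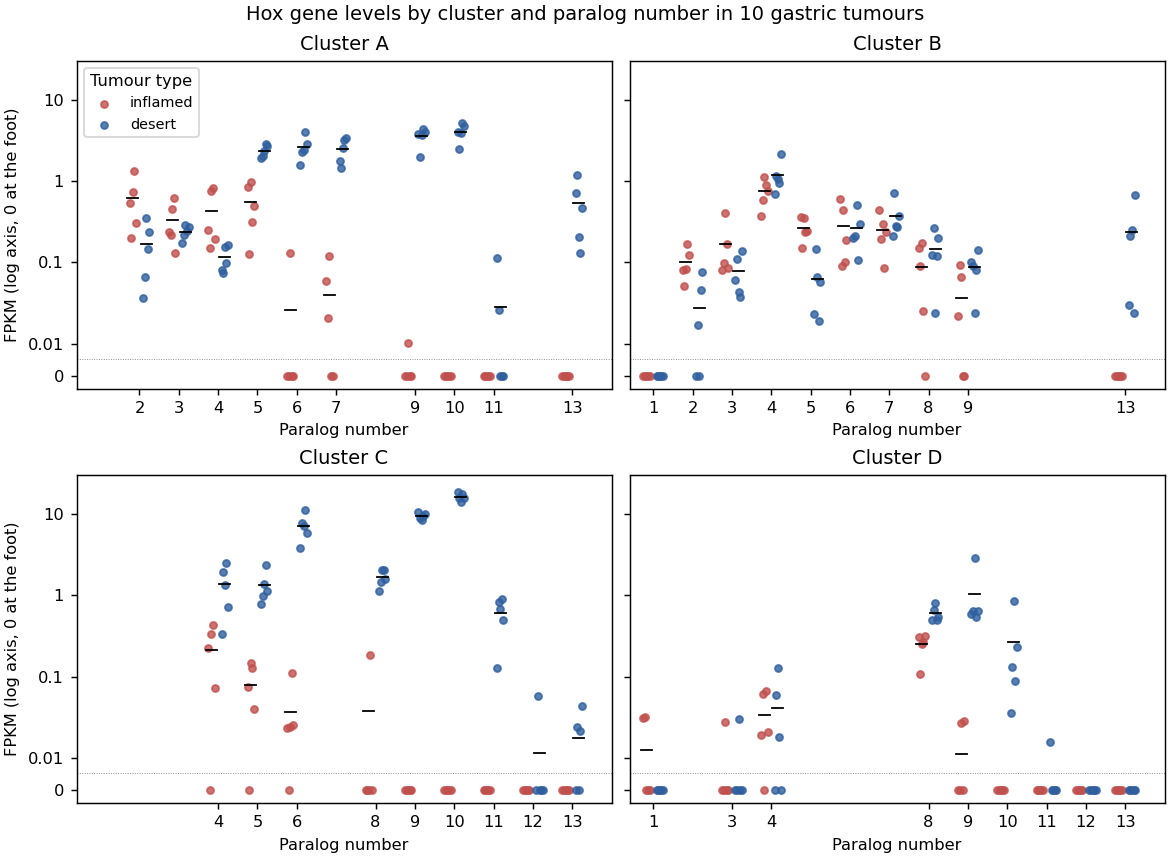
FPKM of Hox genes (log axis, with 0 set apart at the foot) by paralog number, 1 panel per cluster, with 1 point per tumour and bars at group means of 0.01 FPKM or more (5 inflamed and 5 desert tumours). Desert points stand above inflamed points from Hoxa5 to Hoxa10 and from Hoxc5 to Hoxc11, and the inflamed points from number 10 upward are all at 0.

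Cluster C held the highest Hox levels, in desert tumours, and the lowest summed level of any cluster in inflamed tumour 2, where it had no read. It summed to 37.9 ± 4.73 FPKM in desert tumours (SD, n = 5) and to 0 to 0.857 FPKM in inflamed tumours. It made up 64.8% ± 4.64 (SD, n = 5) of the summed Hox level in desert tumours. Of its 9 members, 6 were tested and all 6 were called lower in inflamed tumours, where 31.2% of all tested genes were called lower. These 6 passed the filter through their desert levels, so the 6 of 6 is a description.

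Hoxc10 (ENSMUSG00000022484, chromosome 15, 102875231 to 102880328 in the deposited table), a gene of the lumbar body region and the hindlimb, was at 18.6, 15.6, 14.2, 17.7 and 15.6 FPKM in desert tumours 1 to 5 and had no read in any inflamed tumour. With 2694 reads against 0, its level was at least 868-fold higher in desert tumours. This bound sets the inflamed group at 3 reads over its 5 libraries, the limit that a count of 0 allows, and like the other limits and intervals here it covers counting error only. The log2 difference was -4.11 (SE 0.09, adjusted p = 1.24e-10). Hoxc9 (ENSMUSG00000036139, chromosome 15, 102884874 to 102893531), a gene of the thoracic region that lies next to it, was at 10.6, 8.96, 8.41, 9.497 and 9.89 FPKM in desert tumours and also had no read in inflamed tumours. It was at least 641-fold higher in desert tumours, from 1990 reads (log2 difference -3.39, SE 0.09, adjusted p = 4.59e-10). These 2 genes varied little among the desert tumours, with an SD of 1.76 and 0.849 FPKM on means of 16.3 and 9.48 FPKM.

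Hoxc6 (ENSMUSG00000001661, chromosome 15, 102906689 to 102920313), a gene of the thoracic region and the mammary gland, was at 0.0236, 0, 0.0238, 0.109 and 0.0254 FPKM in the inflamed tumours 1 to 5 and 3.76, 7.699, 7.09, 11.2 and 5.89 FPKM in desert tumours 1 to 5. Desert tumour 4 was highest and desert tumour 1 lowest, and the groups did not overlap (log2 difference -2.90, SE 0.21, adjusted p = 6.24e-07, 196-fold by the means). The inflamed reads were 7 in all, and without inflamed tumour 4 the inflamed mean of 0.0364 FPKM was 0.0182 FPKM. Hoxc8 (ENSMUSG00000001657, chromosome 15, 102899039 to 102902543), which acts in the thoracic skeleton, was at 1.13, 1.45, 2.04, 2.04 and 1.601 FPKM in desert tumours. In inflamed tumours all 8 of its reads were in tumour 4, at 0.186 FPKM, and the other 4 had none (log2 difference -1.35, SE 0.13, adjusted p = 5.38e-06). Hoxc4 (ENSMUSG00000075394, chromosome 15, 102927366 to 102945278), the most 3′ member of the cluster, was at 0.221, 0, 0.334, 0.435 and 0.0714 FPKM in the inflamed and 0.3299, 1.95, 1.33, 2.52 and 0.718 FPKM in the desert tumours. The ranges overlapped, since desert tumour 1 lay below inflamed tumours 3 and 4 (log2 difference -0.89, SE 0.25, adjusted p = 0.00896).

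Hoxc5 (ENSMUSG00000022485, chromosome 15, 102875878 to 102925861) was at 0.0735, 0, 0.148, 0.128 and 0.0396 FPKM in the inflamed and 0.781, 0.972, 1.39, 2.37 and 1.13 FPKM in the desert tumours, without overlap (log2 difference -1.08, SE 0.16, adjusted p = 1.83e-04). Its interval in the table runs across Hoxc10, Hoxc9, Hoxc8 and Hoxc6, and the sources used here do not give the assignment of reads in such overlaps. The share of its reads that belong to those neighbours is uncertain. Hoxc11 (ENSMUSG00000001656, chromosome 15, 102862862 to 102866143) was at 0.129, 0.815, 0.676, 0.9104 and 0.496 FPKM in desert tumours, lowest in tumour 1, and had no inflamed read. Its mean was below the filter. Without the filter it was called lower in inflamed tumours (log2 difference -0.66, limma adjusted p = 0.00238, with 16.7% of all genes so called without the filter), and it was at least 34.1-fold higher in desert tumours. Beyond it, Hoxc12 had 1 and Hoxc13 4 reads over the 5 desert libraries, and both had 0 in the inflamed ones.

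Cluster A was divided along its length. From Hoxa5 to Hoxa10 the levels were higher in desert tumours, whereas Hoxa2, Hoxa3 and Hoxa4 overlapped between the groups and had higher means in inflamed tumours. Hoxa5 to Hoxa7 summed to 0.147 to 1.23 FPKM in the inflamed and 5.27 to 10.1 FPKM in the desert tumours, and Hoxa9 to Hoxa13 to at most 0.0103 FPKM and to 5.67 to 9.78 FPKM in the same groups.

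Hoxa10 (ENSMUSG00000000938, chromosome 6, 52208177 to 52217834), a gene of the lumbar region and the uterus, was at 4.05, 2.502, 3.89, 5.22 and 4.71 FPKM in desert tumours 1 to 5 and had no inflamed read. It was at least 371-fold higher in desert tumours, from 1164 reads (log2 difference -2.32, SE 0.15, adjusted p = 2.65e-07). Hoxa9 (ENSMUSG00000038227, chromosome 6, 52200080 to 52208069), also known for its part in blood progenitors, was at 3.83, 1.96, 3.66, 4.43 and 3.97 FPKM in desert tumours, from 1733 reads. Its only inflamed read was in tumour 3, which gives a ratio of 1675 with a 95% counting interval of 300.3 to 66202 (exact binomial; log2 difference -2.16, SE 0.15, adjusted p = 6.81e-07). Desert tumour 2 was the lowest of the 5 for both genes.

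Hoxa7 (ENSMUSG00000038236, chromosome 6, 52191471 to 52198834) was at 0.0592, 0.0206, 0.119, 0 and 0 FPKM in the inflamed and 1.79, 1.45, 2.55, 3.199 and 3.39 FPKM in the desert tumours, from 10 and 628 reads (log2 difference -1.71, SE 0.17, adjusted p = 6.49e-06). Without inflamed tumour 3 its inflamed mean of 0.0398 FPKM was 0.0200 FPKM. Hoxa6 (ENSMUSG00000043219, chromosome 6, 52183268 to 52185702) was at 1.57, 2.29, 2.42, 3.97 and 2.83 FPKM in desert tumours, highest in tumour 4. Both of its inflamed reads were in tumour 3, and the ratio of 97.6 had a 95% counting interval of 26.7 to 812 (log2 difference -1.78, SE 0.16, adjusted p = 3.72e-06). Hoxa5 (ENSMUSG00000038253, chromosome 6, 52178734 to 52181567), which patterns the mesenchyme of lung and stomach, was present in every tumour, at 0.847, 0.126, 0.975, 0.315 and 0.488 FPKM in the inflamed and 1.91, 2.04, 2.35, 2.88 and 2.72 FPKM in the desert tumours. The groups did not overlap and their means differed 4.33-fold (log2 difference -1.15, SE 0.17, adjusted p = 1.35e-04).

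At the 3′ end, Hoxa2 (ENSMUSG00000014704, chromosome 6, 52139397 to 52141811), known for hindbrain and neural crest patterning, was at 0.544, 0.201, 0.741, 1.33 and 0.3097 FPKM in the inflamed and 0.0367, 0.0663, 0.3500, 0.148 and 0.238 FPKM in the desert tumours, with overlap. It was below the filter, was not called without it (log2 difference 0.44, limma adjusted p = 0.06903), and was called higher in inflamed tumours by limma voom on the recovered reads (1.82, adjusted p = 0.0288), as were 32.9% of the genes voom tested. Hoxa4 (ENSMUSG00000000942, chromosome 6, 52166651 to 52168733) was at 0.249, 0.149, 0.754, 0.824 and 0.192 FPKM in inflamed tumours, against 0.0818, 0.0738, 0.156, 0.0989 and 0.165 FPKM in desert ones, with inflamed tumours 3 and 4 highest (without the filter, adjusted p = 0.08902). Hoxa3 (ENSMUSG00000079560, chromosome 6, 52146042 to 52190316) was at 0.236, 0.217, 0.457, 0.623 and 0.132 FPKM in inflamed tumours, against 0.173, 0.215, 0.289, 0.245 and 0.272 FPKM in desert ones (adjusted p = 0.494). Inflamed tumours 4 and 3 were also the highest for the 6 smooth muscle markers, which summed to 184, 119, 393, 798 and 71.9 FPKM in inflamed tumours 1 to 5 and to at most 40.6 FPKM in desert ones. The part of smooth muscle in the Hoxa2, Hoxa3 and Hoxa4 values was not tested. The Hoxa3 interval contains those of Hoxa4, Hoxa5 and Hoxa6, so its reads are uncertain in the same way as those of Hoxc5.

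At the 5′ end, Hoxa13 (ENSMUSG00000038203, chromosome 6, 52234674 to 52237788), a hindgut and limb gene, was at 0.706, 1.18, 0.207, 0.131 and 0.461 FPKM in desert tumours, highest in tumours 1 and 2, with no inflamed read. Below the filter, it was called lower in inflamed tumours once the filter was dropped (log2 difference -0.58, limma adjusted p = 0.0156) and was at least 35.9-fold higher in desert tumours. Hoxa11, between it and Hoxa10, had 5 desert reads and no inflamed read.

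**Figure D2:**
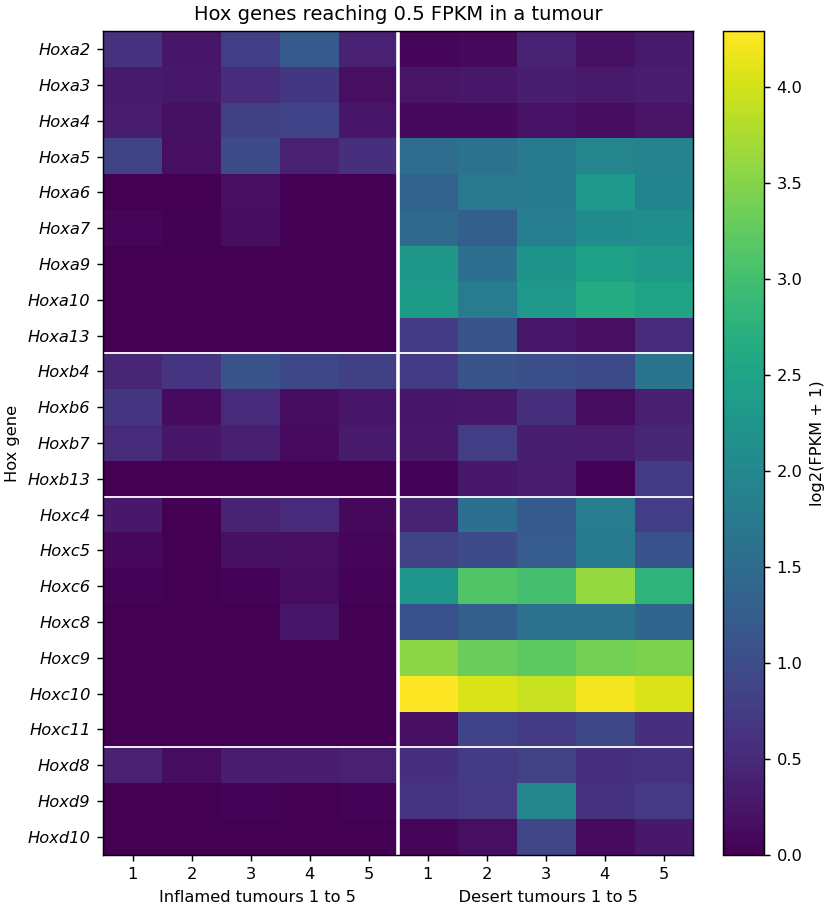
log2(FPKM + 1) of the 23 Hox genes that were tested or reached 0.5 FPKM in a tumour (rows, by cluster and paralog number) in inflamed tumours 1 to 5 and desert tumours 1 to 5 (columns). The desert columns are bright from Hoxa5 to Hoxa10 and at Hoxc6, Hoxc9 and Hoxc10, and the Hoxb4, Hoxb6 and Hoxb7 rows overlap between both sides.

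Cluster B overlapped between the tumour types. It summed to 1.34 to 2.94 FPKM in the inflamed and 1.44 to 4.13 FPKM in the desert tumours, and these ranges overlapped, as they did in no other cluster. It made up 43.7% ± 10.7 (SD, n = 5) of the summed Hox level in inflamed tumours and 4.28% ± 1.898 in desert tumours. Only Hoxb4 of its 10 members passed the filter.

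Hoxb4 (ENSMUSG00000038692, chromosome 11, 96209093 to 96212464), known for its role in blood stem cells, was at 0.376, 0.578, 1.14, 0.896 and 0.762 FPKM in the inflamed and 0.686, 1.15, 1.07, 0.942 and 2.18 FPKM in the desert tumours 1 to 5. The ranges overlapped and desert tumour 5 stood highest. The log2 difference of -0.31 (SE 0.18, adjusted p = 0.152) was not called, was -0.17 without desert tumour 5 (adjusted p = 0.342), and was called after rescaling to TPM and by quantile normalization (limma adjusted p = 0.0421 and 0.0292, 0.0292 to 0.342 across all 18 alternatives). Hoxb6 (ENSMUSG00000000690, chromosome 11, 96183302 to 96192395) was at 0.607, 0.0906, 0.437, 0.1004 and 0.187 FPKM in the inflamed and 0.199, 0.2098, 0.506, 0.107 and 0.295 FPKM in the desert tumours. Hoxb7 (ENSMUSG00000038721, chromosome 11, 96177449 to 96180988) was at 0.441, 0.192, 0.296, 0.0851 and 0.237 FPKM in inflamed tumours, against 0.211, 0.724, 0.282, 0.272 and 0.376 FPKM in desert ones. Both overlapped between the groups (without the filter, limma adjusted p = 0.9499 and 0.429).

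Hoxb5 (ENSMUSG00000038700, chromosome 11, 96194162 to 96196947), a gene of the enteric nervous system and lung mesenchyme, was the member whose inflamed values all lay above the desert ones. It was at 0.367, 0.149, 0.349, 0.236 and 0.241 FPKM in the inflamed and 0.0234, 0.148, 0.0669, 0.0189 and 0.0568 FPKM in the desert tumours, a 4.28-fold difference of the means from 63 and 15 reads. It was below the filter and was called higher in inflamed tumours without it (log2 difference 0.25, limma adjusted p = 0.0104), as were 18.1% of all genes. The gap between the groups was narrow, from desert tumour 2 to inflamed tumour 2. It was named after its values were seen, and Hoxb5os, a row on the other strand that overlaps it and Hoxb6, had 14 inflamed and 12 desert reads. Hoxb13 (ENSMUSG00000049604, chromosome 11, 96085142 to 96088273), a gene of the prostate and hindgut set far 5′ of its cluster, was at 0.0295, 0.213, 0.253, 0.0238 and 0.669 FPKM in desert tumours and had no inflamed read. It was at least 14.6-fold higher in desert tumours, but most of its 47 reads were in tumour 5, without which the desert mean of 0.238 FPKM was 0.130 FPKM, and it was not called without the filter (adjusted p = 0.0893). Hoxb2, Hoxb3, Hoxb8 and Hoxb9 stayed at or below 0.404 FPKM in every tumour.

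Cluster D was low, with expression near its middle. It summed to 0.2004 to 0.361 FPKM in the inflamed and 1.13 to 4.65 FPKM in the desert tumours. Hoxd9 (ENSMUSG00000043342, chromosome 2, 74528071 to 74530552) was at 0.5797, 0.634, 2.85, 0.541 and 0.642 FPKM in desert tumours. Desert tumour 3 stood far above the other 4. It also had the highest summed level of the 5 skeletal muscle markers, 269 FPKM, followed by desert tumour 2 with 80.3 FPKM and at most 4.51 FPKM in the other 3, and the part of skeletal muscle in the Hoxd9 and Hoxd10 values was not tested. Without desert tumour 3 the desert mean of 1.05 FPKM was 0.599 FPKM. Inflamed tumours 3 and 5 held 1 read each, and the ratio of 90.9 had a 95% counting interval of 24.8 to 756. The log2 difference was -0.91 (SE 0.24, adjusted p = 0.00563), and -0.66 (adjusted p = 0.000331) without desert tumour 3.

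Hoxd10 (ENSMUSG00000050368, chromosome 2, 74522268 to 74525449) was at 0.0359, 0.1296, 0.855, 0.0868 and 0.232 FPKM in desert tumours, again highest in tumour 3, with no inflamed read. It was not called without the filter (limma adjusted p = 0.114), and without desert tumour 3 its desert mean of 0.268 FPKM was 0.121 FPKM. Hoxd8 (ENSMUSG00000027102, chromosome 2, 74534959 to 74538277) was present in every tumour, at 0.3104, 0.108, 0.2501, 0.263 and 0.312 FPKM in the inflamed and 0.499, 0.665, 0.792, 0.498 and 0.538 FPKM in the desert tumours. The groups did not overlap, and without the filter it was called lower in inflamed tumours (log2 difference -0.36, limma adjusted p = 0.00822). It was the gene just below the filter, with a mean of 0.424 FPKM over the 10 libraries, and Hoxd9 the gene just above it, with 0.530 FPKM. Hoxd1, Hoxd3 and Hoxd11 had 2, 2 and 0 inflamed and 0, 2 and 1 desert reads, and Hoxd4 had 8 and 10.

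**Figure D3:**
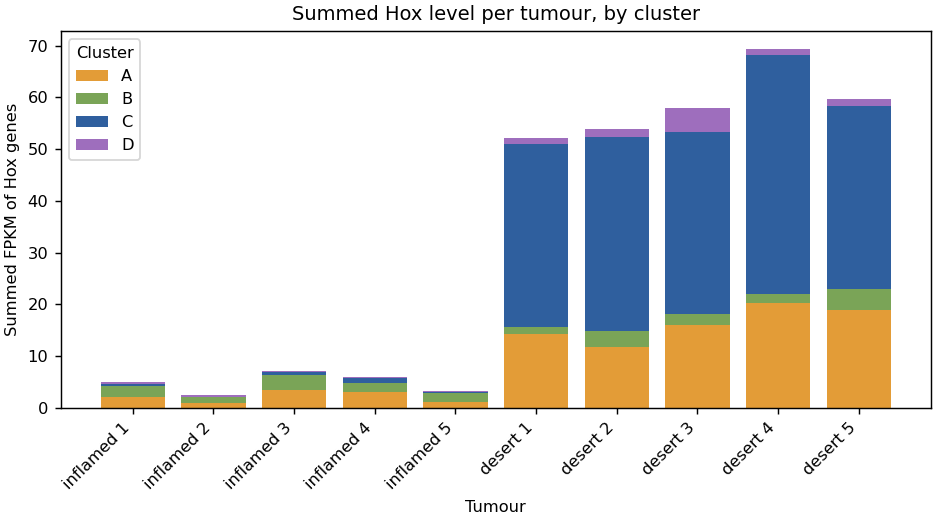
Summed FPKM of the Hox genes in each of the 10 tumours, stacked by cluster. Inflamed tumours reach 2.36 to 7.12 FPKM, mostly clusters A and B, and desert tumours 52.1 to 69.3 FPKM, mostly clusters C and A.

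Summed by paralog number over the 4 clusters, the difference lay in the middle and high numbers, mostly those of clusters A and C. Numbers 1 to 4 (12 genes) summed to 1.49 to 4.55 FPKM in the inflamed and 1.37 to 4.05 FPKM in the desert tumours. None of the 12 had groups apart, but Hoxc4 was called lower in inflamed tumours and Hoxb1 had no read. Numbers 5 to 8 (11 genes) summed to 0.777 to 2.903 and 11.99 to 26.6 FPKM, with the desert values above the inflamed ones for 7 genes and the reverse for Hoxb5. Those of cluster B alone overlapped, with sums of 0.446 to 1.57 FPKM in the inflamed and 0.518 to 1.35 FPKM in the desert tumours. Numbers 9 to 13 (16 genes) summed to at most 0.104 FPKM in inflamed tumours and to 32.2 to 38.8 FPKM in desert tumours, with the desert values above for 9 genes. Among all genes with a read, 13.7% had every desert value above every inflamed value and 15.2% the reverse. As a share of the summed Hox level, numbers 1 to 4 made up 58.2% ± 12.8 in inflamed and 5.53% ± 1.67 in desert tumours, and numbers 9 to 13 made up 1.33% ± 1.53 and 62.4% ± 7.05 (SD, n = 5 each).

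Genes of the same number did not move alike in every cluster. At number 4, Hoxa4 had its higher mean in inflamed tumours (0.434 ± 0.327 against 0.115 ± 0.0426 FPKM), Hoxb4 was not called, and Hoxc4 was lower in inflamed tumours. At number 5, Hoxa5 and Hoxc5 had all desert values above the inflamed ones and Hoxb5 the reverse. At number 9, Hoxa9, Hoxc9 and Hoxd9 were lower in inflamed tumours, whereas Hoxb9 overlapped, at 0.0362 ± 0.0415 FPKM in the inflamed and 0.0884 ± 0.0429 FPKM in the desert tumours (SD, n = 5 each). At number 10, Hoxa10, Hoxc10 and Hoxd10 had reads in all 5 desert tumours and in no inflamed one, and summed to 18.3 to 22.99 FPKM in desert tumours. The most 5′ genes with a read in all 5 desert tumours were Hoxa13, Hoxb13, Hoxc11 and Hoxd10, and in all 5 inflamed tumours Hoxa5, Hoxb7 and Hoxd8, with no cluster C gene.

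The order of levels was steep in desert and flat in inflamed tumours. In desert tumours Hoxc10 was above every other Hox gene in each of the 5, and its range did not overlap that of Hoxc9. Hoxc9 was above Hoxc6 in 4 of 5 tumours, desert tumour 4 being the other, and Hoxa10 was above Hoxa9 in 5 of 5 although their ranges overlapped. Hoxa6, Hoxa7 and Hoxa5 followed at 2.62, 2.48 and 2.38 FPKM on average and could not be ordered beyond their spread. In inflamed tumours Hoxb4, Hoxa2, Hoxa5 and Hoxa4 led, at 0.7498 ± 0.292, 0.626 ± 0.447, 0.5504 ± 0.356 and 0.434 ± 0.327 FPKM (SD, n = 5), and among the 10 highest each gene's range overlapped that of the next. Of the 25 Hox genes with an inflamed read, 9 were highest in tumour 3 and 8 in tumour 4. Of the 35 with a desert read, 9 each were highest in tumours 3 and 4 and 8 in tumour 5.

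Of the 149 genes in the whole table with reads in every desert tumour and none in any inflamed tumour (0.432% of the 34466 genes with a read), 7 were Hox genes: Hoxc10, Hoxc9, Hoxa10, Hoxc11, Hoxa13, Hoxd10 and Hoxb13. By mean FPKM in desert tumours Hoxc10 ranked 2nd, Hoxc9 3rd and Hoxa10 6th among the 149. The table assigns 186 other genes to the homeobox class, a set taken up after the file was seen, and 145 of them had a read. Of these 145, 31 (21.4%) had all desert values above the inflamed ones, 26 (17.9%) the reverse, and Rhox2g and Gsx2 had reads in every desert and no inflamed tumour. For the 36 Hox genes with a read the shares were 44.4%, 2.78% and, for reads in every desert and no inflamed tumour, 19.4%, against 1.38% of the 145. In the opposite pattern, with reads in every inflamed and no desert tumour, there were 0 Hox genes and 1.42% of all genes with a read. The difference between the families was not tested.

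Between the first and the last Hox gene of each cluster the table held 47 other rows, 26 of them with a read, mostly short or non-coding. For 24 of the 26 the groups overlapped, 1 had every desert value above every inflamed value, and 1 the reverse. The shares apart over all genes with a read were 13.7% and 15.2%. Many of the 26 held few reads, which makes overlap likely. Strandedness of the libraries is not given in the sources used here: reads of an antisense row and of the Hox gene it overlaps cannot be told apart. Hoxb3os, antisense to Hoxb2 and Hoxb3, had 6, 7, 11, 13 and 7 reads in inflamed tumours 1 to 5 and 1, 2, 1, 0 and 0 in desert tumours, without overlap. In cluster A, 9530018H14Rik, next to Hoxa13, had no inflamed read and 5, 10, 2, 1 and 5 reads in desert tumours, and groups that did not overlap. In cluster B, Gm11538, on the Hoxb9 side of Hoxb13, had 0, 0, 45, 0 and 82 reads in desert tumours 1 to 5 and none in inflamed ones.

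Only 4 of the 47 rows passed the filter, and all of them are short, at 80 to 143 bases, where few reads make a high FPKM. ENSMUSG00002075580, near Hoxa2, was called higher in inflamed tumours, at 2.38, 1.66, 2.800, 0 and 0.427 FPKM and 0 in desert tumours (log2 difference 1.12, SE 0.33, adjusted p = 0.0122). ENSMUSG00002075973, near Hoxb13, was called lower, at 0 in inflamed tumours and 0.815, 4.41, 3.11, 0 and 11.2 FPKM in desert tumours (-1.79, SE 0.55, adjusted p = 0.0144). Its neighbour ENSMUSG00002076964 (adjusted p = 0.0637) and Mir615, within Hoxc5 (adjusted p = 0.0574), were not called by limma. Neither call was kept by limma voom with its minimum of 10 reads on average, since none of the 4 rows reached it. Hotair, the antisense RNA between Hoxc11 and Hoxc12, had 9 desert reads and no inflamed read. Mir196a-2, a microRNA gene between Hoxc10 and Hoxc9, had 4 desert reads.

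Beyond the clusters, the list of ParaHox and other Hox-related homeobox genes had 13 members, 5 of them tested. Of these, 2 were higher and 3 lower in inflamed tumours, where 31% of all tested genes were higher and 31.2% lower. Evx1 (ENSMUSG00000005503, chromosome 6, 52290483 to 52295363), a homeobox gene that lies 52694 bases beyond Hoxa13 in the deposited table, was at 0.0987, 0.0619, 0, 0.228 and 0.212 FPKM in the inflamed and 36.4, 33.4, 38.4, 41.3 and 32.3 FPKM in the desert tumours (log2 difference -5.06, SE 0.09, adjusted p = 7.22e-11). In each desert tumour it exceeded Hoxc10, the highest Hox gene. Hottip, between Hoxa13 and Evx1, was at no more than 0.0453 FPKM, and Evx2, at the same end of cluster D, had no read. Pdx1, the ParaHox gene of the distal stomach and the duodenum, was at 14.6 ± 5.200 FPKM in the inflamed and 0.954 ± 0.503 FPKM in the desert tumours (SD, n = 5 each; log2 difference 2.98, SE 0.25, adjusted p = 2.51e-06). The intestinal Cdx2, chosen after its values were seen, was below the filter, at 0.427, 0.682, 0.253, 0.581 and 0.811 FPKM in inflamed tumours and listed at 0 in all desert tumours.

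Hox proteins bind DNA with PBX, MEIS and PKNOX partners. These cofactors were present in both groups. Of 9 genes 8 were tested, and 1 was higher and 2 lower in inflamed tumours, where 31% of all tested genes were higher and 31.2% lower. The median log2 difference was -0.068, against -0.0072 over all tested genes. After rescaling to TPM 1 was higher and 4 lower, where 22.5% of all tested genes were higher and 41.7% lower. The most abundant, Pbx2 and Meis2, were at 10.7 ± 0.933 and 8.75 ± 1.43 FPKM in the inflamed and 10.1 ± 2.59 and 7.73 ± 2.06 FPKM in the desert tumours, and neither was called by limma, their sign turning under TPM (adjusted p = 0.5799 and 0.3702). Meis3 was higher in inflamed tumours, at 3.79, 3.61, 3.48, 4.76 and 3.100 FPKM against 0.288, 0.668, 0.4699, 0.5302 and 0.399 FPKM in desert tumours (1.69, SE 0.12, adjusted p = 5.79e-07). Pbx4 was lower, at 0.3901 ± 0.0714 against 1.16 ± 0.263 FPKM (-0.63, SE 0.11, adjusted p = 4.73e-04).

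Polycomb complexes keep Hox genes silent outside their domain, and Trithorax complexes keep them active. Of 22 Polycomb genes, all tested, 5 were higher, 13 lower and 4 not called in inflamed tumours, with a median difference of -0.70, where 31% of all tested genes were higher and 31.2% lower. The 5 higher calls depend on scaling: after rescaling to TPM, which moved the median of all genes to -0.28, 0 were higher and 15 lower, where 22.5% of all genes were higher and 41.7% lower. Cbx2, a reader of the Polycomb mark, was at 2.33, 2.06, 1.95, 2.39 and 2.24 FPKM in the inflamed and 8.16, 9.04, 8.202, 9.73 and 10.4 FPKM in the desert tumours (-1.66, SE 0.09, adjusted p = 7.27e-08). Rnf2, a ubiquitin ligase of the complex, was at 8.16 ± 1.26 against 24.8 ± 3.16 FPKM (-1.49, SE 0.12, adjusted p = 1.67e-06). Ring1, named after its values were seen, was among the 5 higher, at 7.01 ± 0.820 against 5.33 ± 0.570 FPKM (0.34, SE 0.10, limma adjusted p = 0.00937). The core subunit Suz12 was at 17.4 ± 1.39 against 29.8 ± 4.05 FPKM (-0.73, SE 0.10, adjusted p = 8.65e-05), and Rbbp7, a histone chaperone and the most abundant member, at 73.4 ± 11.4 against 84.99 ± 15.7 FPKM and was not called (limma adjusted p = 0.275), except after rescaling to TPM (adjusted p = 0.0247, with a highest of 0.562 among 19 alternatives). Of 11 Trithorax genes and H3K27 demethylases, all tested, 1 was higher and 10 lower, with a median of -0.42. Kmt2b, a histone methyltransferase, was at 10.3 ± 0.9995 against 20.03 ± 0.849 FPKM (-0.91, SE 0.08, adjusted p = 2.81e-06), and Ash2l, a subunit of its complex, at 9.29 ± 0.705 against 21.1 ± 5.24 FPKM (-1.08, SE 0.13, adjusted p = 4.30e-05). The demethylase Kdm6b, which removes the Polycomb mark, was at 12.5 ± 1.02 against 19.1 ± 2.396 FPKM (-0.56, SE 0.09, adjusted p = 3.36e-04). Dpy30, another subunit shared by the methyltransferase complexes, was the member that was higher, at 24.3 ± 3.33 against 15.6 ± 2.31 FPKM (0.61, SE 0.12, adjusted p = 0.00106; SD, n = 5 each throughout).

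**Figure D4:**
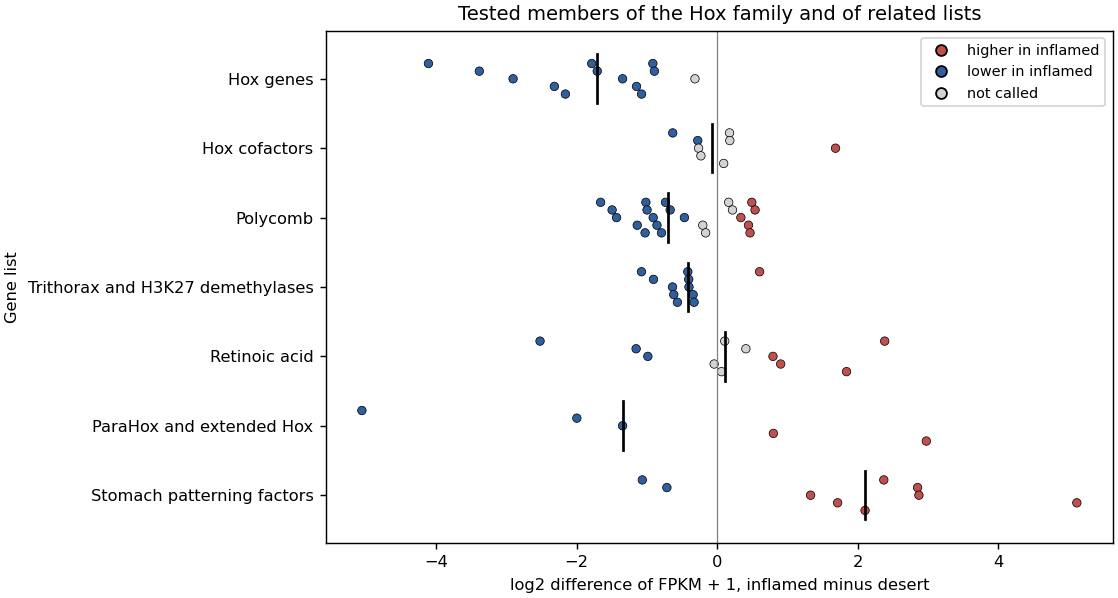
log2 difference of FPKM + 1, inflamed minus desert, for each tested member of the Hox family and of 6 related lists, with the list median as a black bar. Tested Hox genes all lie left of 0, the cofactors lie around it, and the stomach patterning factors lie mostly to the right.

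Retinoic acid induces Hox genes from the 3′ end of a cluster. Of 16 genes of its pathway 11 were tested, 4 were higher and 3 lower in inflamed tumours, shares near the 31% and 31.2% of all tested genes, and the median difference was 0.11. The enzymes that make retinoic acid moved in opposite directions. Aldh1a2 was at 4.34, 4.17, 3.36, 7.78 and 4.34 FPKM in the inflamed and 0.0576, 0.1300, 0.0549, 0.0464 and 0.0931 FPKM in the desert tumours (2.39, SE 0.17, adjusted p = 5.65e-07). Aldh1a1 was at 30.03, 22.9, 24.3, 43.1 and 28.1 FPKM in the inflamed and 297, 64.1, 259, 118 and 248 FPKM in the desert tumours (-2.52, SE 0.39, adjusted p = 2.10e-04), and Aldh1a3 at 30.7 ± 13.1 and 68.4 ± 24.6 FPKM (SD, n = 5 each; -1.15, SE 0.37, adjusted p = 0.0184).

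Of 12 stomach patterning factors 9 were tested, of which 7 were higher and 2 lower in inflamed tumours, with a median of 2.11. Over all tested genes 31% were higher and 31.2% lower. Gata4, a factor of stomach epithelium, was at 44.8 ± 7.76 against 0.313 ± 0.208 FPKM (5.12, SE 0.14, adjusted p = 5.54e-10), and Barx1, a factor of stomach mesenchyme, at 11.1 ± 4.83 against 0.584 ± 0.3801 FPKM (2.87, SE 0.27, adjusted p = 5.68e-06). Sox2, a factor of the foregut, was lower in inflamed tumours, at 18.3, 19.8, 21.9, 21.2 and 17.4 FPKM against 29.7, 39.7, 49.2, 40.4 and 56.8 FPKM (-1.06, SE 0.15, adjusted p = 1.23e-04).

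Of the markers of other cell types, some lists had more calls than the 31% higher and 31.2% lower over all tested genes and some were near them. The 6 smooth muscle markers summed to 71.9 to 798 FPKM in the inflamed and 7.49 to 40.6 FPKM in the desert tumours, with 5 higher. The 8 fibroblast markers summed to 99.7 to 291 and 62.7 to 132 FPKM, sums that overlap, with 3 higher, a share near that of all genes, and 0 lower. The 6 cartilage markers summed to 51.1 to 68.1 FPKM in the inflamed and 363 to 566 FPKM in the desert tumours. Most of the inflamed sum was Sox9, at 49.9 to 67.1 FPKM there and at 141 to 174 FPKM in desert tumours. The 4 cartilage markers tested were lower in inflamed tumours. The other 2, Acan and Matn1, reached 0.299 and 0.0651 FPKM at their highest, overlapped between the groups and were below the filter, and the mean of Acan was higher in inflamed tumours. The cartilage collagen gene Col2a1 was at 20.5 to 163 FPKM in desert tumours and at most 0.0184 FPKM in inflamed ones. Of the 4 tested, Col2a1 and Sox9 were highest in desert tumour 1, and Comp and Col9a1 in desert tumour 3. Of the other lists, 5 of 7 pan-epithelial, 3 of 5 endothelial, 5 of 7 leukocyte and all 3 tested enteric neuron and glia markers were higher. The 5 skeletal muscle markers, of which 1 was lower, set 2 desert tumours apart: they summed to 3.32, 80.3, 269, 1.24 and 4.51 FPKM in desert tumours 1 to 5 and to at most 3.32 FPKM in inflamed ones. The part of these cell types in the Hox values was not tested.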

How the data were processed

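The authors deposited FPKM values for 56748 genes in 10 libraries, 5 inflamed and 5 desert gastric tumours of mice. The submitters' processing notes name the build mm10; aligner, counter and annotation are not given in the sources used here, and positions are printed as the deposited table holds them, with no build named. The protocol text counts fewer tumours than the series holds; all 10 were used, with groups from the sample titles. FPKM times gene length gave whole reads for 100% of values above 0 (within 0.01).

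limma 3.58.1 (R 4.3.3; two-sided, with trend and robust options and no term but group) was run on log2(FPKM + 1), which shrinks the differences of low genes, for genes with a mean of at least 0.5 FPKM, and all adjusted p-values and SEs of differences come from it unless voom is named. The test was tried on simulated data. P-values measure the spread between the tumours of a group. Whether the desert grafts share a line is not given, and if they do, their spread is only that between grafts of the same line. Members and lists were chosen with earlier results of these data known. Named genes are the Hox genes tested or reaching 0.5 FPKM in a tumour, rows inside a cluster with a mean of at least 0.5 FPKM, and up to 4 members of each other list, the 2 with the largest difference and the 2 with the highest mean; others were named after their values were seen. Of 22 genes with RefSeq promoters, 4 are shown. Alternatives were 9 other settings and 10 left-out libraries. The values of 1 Hox gene enter the counts and sums but are not reported here singly.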

Additional observations from a re-analysis of the deposited data

Results flagged for a closer look

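In 6 of the 39 combinations of a named Hox gene and a tumour type with any spread, 1 tumour stood apart: its gap to the nearest other tumour, divided by the range of the 5, exceeded Dixon's 95% critical value of 0.710. Chance gives such a gap in about 1 of 20 groups, and more often where most tumours of a group have no read. Hoxd9 was at 2.85 FPKM in desert tumour 3, the next desert tumour being at 0.642 FPKM, and its neighbour Hoxd10 was at 0.855 FPKM in the same tumour, the next being at 0.232 FPKM. Hoxc6 was at 0.109 FPKM in inflamed tumour 4, the next inflamed tumour being at 0.0254 FPKM, and Hoxc8 was at 0.186 FPKM in that tumour and at 0 in the other 4. Hoxa6 was at 0.131 FPKM and Hoxa9 at 0.0103 FPKM in inflamed tumour 3, from 2 reads and 1 read, and both were at 0 in the other 4.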

How the results depend on the processing

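All 12 Hox genes called lower in inflamed tumours kept that call in each of the 18 or 19 alternatives in which they were tested (highest limma adjusted p = 0.0241, for Hoxc4). The number of Hox genes called lower was 12 whichever library was left out. With a mean of at least 5 FPKM it was 1, since only Hoxc10 remained among the genes tested; without a filter and with voom it was 15, and 1 Hox gene was then called higher in each, Hoxb5 without a filter and Hoxa2 with voom. The share of cluster C in the summed desert Hox level was 63.6% to 66.2% with each desert tumour left out. With a mean of at least 5 FPKM, 0 cofactors were higher and 0 lower, 3 Polycomb genes higher, 1 ParaHox and related gene higher and 1 lower, 2 stomach patterning factors higher, and 0 other cluster rows were called in either direction. Without a filter and with voom 2 cofactors were higher. After rescaling to TPM 4 cofactors were lower, 0 Polycomb genes higher and 3 other cluster rows lower, where 22.5% of all tested genes were higher and 41.7% lower. The cofactors Pbx2 and Meis2, not called in any setting, turned to -0.19 and -0.095 under TPM. TPM also raises every value, so the pseudocount weighs less. Of the other cluster rows, 4 were called higher and 3 lower without a filter, 3 lower with a pseudocount of 0.1, and 0 in either direction with voom; with each library left out 1 to 3 were lower (3 without desert tumour 1, 2 without desert tumour 4 or 5) and 1 was higher. Other causes were not tested.

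Tumours with the same number showed no sign of pairing in their deviations from the group means. These correlated at -0.0737 to 0.0763 (5 pairs), against -0.123 to 0.153 for different numbers, and 1 of 5 inflamed tumours correlated best with its own number. The sample titles do not say what equal numbers share, and such correlations cannot exclude a shared batch. With the tumour number as a block 12 Hox genes were called lower and 0 higher, and over all genes 4958 were higher and 4967 lower, against 5197 and 5221. At the depth of these libraries a Hox gene without a read in the 5 inflamed libraries may still be at up to 0.00853 to 0.0348 FPKM, depending on its length.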
